A study of Mus musculus with 3 samples.

Results

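Genes subject to genomic imprinting were followed in long-term hematopoietic stem cells of mouse bone marrow (LT-HSCs), 10 in all: Meg3, H19, Cdkn1c, Ndn, Grb10, Igf2, Dlk1, Plagl1, Peg3 and Mest. The array carries 26 probes named for these 10 genes, out of 56600 probes and 37323 genes used. The genes were selected on a list written with the signals of the same 3 arrays known, so the signals and differences below are a description and carry no test.

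LT-HSCs were sorted from C57BL/6J mice, and total RNA of each of 3 groups was hybridized once, labelled with Cy3, to an Agilent mouse expression array. WT mice are labelled wild-type. The study's methods describe such controls as age-matched floxed animals that lacked the Cre transgene and received tamoxifen too, so every group was exposed to the drug. AtmsKO mice carried CAG-CreERT2 and Atm fl/fl, that is, floxed alleles of the DNA damage kinase gene Atm. Atmp38dKO mice carried CAG-CreERT2 with Atm fl/fl and p38α fl/fl, the latter being floxed Mapk14, the gene of the stress kinase p38α. The CAG promoter is active in nearly all cell types, so deletion was not limited to stem cells. Tamoxifen was given at about 5 weeks of age and cells were taken 4 weeks later according to the series text, whereas the sample labels give an age of 11 weeks. The sort gate is labelled CD150+CD48-Flt3-CD34- LSK, where LSK stands for lineage-negative, Sca-1-positive and c-Kit-positive. Animals of both sexes were used in the study, and how many were pooled for an array is not given in the sources used here.

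There was 1 array per group, and the 3 arrays came from 1 slide and 1 scan, so an array and its genotype cannot be told apart. The HSC marker genes Procr, Slamf1, Mecom, Hlf, Kit, Fgd5, Hoxb5, Mllt3, Gata2 and Meis1 were well above background on all 3 arrays. On the array labelled Atmp38dKO, however, Fgd5 and Hoxb5 read less than 50% of their level on either other array. In the full list of 11 HSC markers, 10 were below WT on that array, with a median log2 difference of -0.48 against 0.02 over all genes. In AtmsKO 5 of the 11 were below WT, with a median of 0.02. Both Atm probes were lower in AtmsKO than in WT, at 23.9 against 87.0 and at 16.3 against 88.8 units of processed signal. On the array labelled Atmp38dKO they read 86.5 and 49.0, and the Mapk14 probes read 616 and 345 against 469 and 295 in WT. Both groups are labelled Atm fl/fl, but after scaling the Atm probes were 2.96-fold and 2.46-fold higher on that array than in AtmsKO. Whether the Mapk14 probes lie in the deleted exons is not given in the sources used here. The cause of these readings was not tested, so this array is referred to by its label. The term mutant arrays below follows the labels too. Of all probes, 73.3% passed the background flag in WT, 68.9% in AtmsKO and 77.7% on the array labelled Atmp38dKO, which bears on every dim gene below. In bulk RNA, fewer cells that express a gene and less RNA per cell cannot be told apart.

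Imprinted genes are expressed mainly from the chromosome inherited from the mother or from the father, under the control of differentially methylated regions set in the germ line. Many lie in clusters in which a non-coding RNA is made from one parental chromosome and protein-coding genes from the other. Several of them restrain growth and are known for high expression in quiescent LT-HSCs, where the Dlk1-Meg3 and Igf2-H19 loci and the cell cycle inhibitor p57 encoded by Cdkn1c have been tied to maintenance of the dormant state. Meg3, H19 and Cdkn1c are expressed from the maternal chromosome, as is Grb10 in most tissues, while Ndn, Igf2, Dlk1, Plagl1, Peg3 and Mest are expressed from the paternal one. The array does not separate the parental alleles, so each signal is the sum of both.

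Probes of the non-coding members are shown first, since the transcripts have no protein and each probe reads a different stretch of RNA. Meg3 was read by 5 probes of 60 bases on the forward strand of chromosome 12 (build mm9, as given in the array files). They are numbered by their order along the gene. Probes 2 to 5 lie at chr12:110783470-110783529, chr12:110799833-110799892, chr12:110806386-110806445 and chr12:110809678-110809737. Their sequences, 5′ to 3′, are all in lower case because no base is singled out.
Meg3 probe 2: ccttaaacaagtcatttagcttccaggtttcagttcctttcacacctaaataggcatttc
Meg3 probe 3: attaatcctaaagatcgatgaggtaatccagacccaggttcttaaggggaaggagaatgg
Meg3 probe 4: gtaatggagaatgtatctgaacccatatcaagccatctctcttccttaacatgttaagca
Meg3 probe 5: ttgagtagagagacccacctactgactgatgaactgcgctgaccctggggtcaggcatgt

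The array annotation assigns Meg3 probes 1 and 5 to RefSeq transcript variant 3 and probes 3 and 4 to transcript variant 1. Probe 2 is assigned to full-length cDNA clones of the locus and to no RefSeq transcript, and it shares 3 of these clones with probe 1. GC content was 38.3% in probes 2 and 4, 43.3% in probe 3 and 55.0% in probe 5. H19 was read by 2 probes on the reverse strand of chromosome 7, at chr7:149761492-149761551 and chr7:149762173-149762232 (mm9). Probe 1 is assigned to RefSeq H19 and probe 2 was designed on a long intergenic non-coding RNA at the same place.
H19 probe 1: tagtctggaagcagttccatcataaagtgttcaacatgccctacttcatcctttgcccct
H19 probe 2: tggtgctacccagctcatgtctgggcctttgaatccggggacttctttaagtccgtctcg

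Signals are given as Feature Extraction processed signal (background-subtracted intensity) with the scanner's own error of the spot, which covers a single array and says nothing of animals. Differences are on the log2 scale after the 75th percentile of each array was subtracted, and a member was called lower or higher from 2-fold on, provided that its brighter array was well above background. Of the 26 probes, 13 were well above background on all 3 arrays, 10 on 1 or 2 of them and 3 on none. The counts by array were 17 in WT, 16 in AtmsKO and 22 on the array labelled Atmp38dKO. Each gene was represented by its brightest probe, and for 7 of the 10 genes that probe was well above background throughout.

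**Figure D1:**
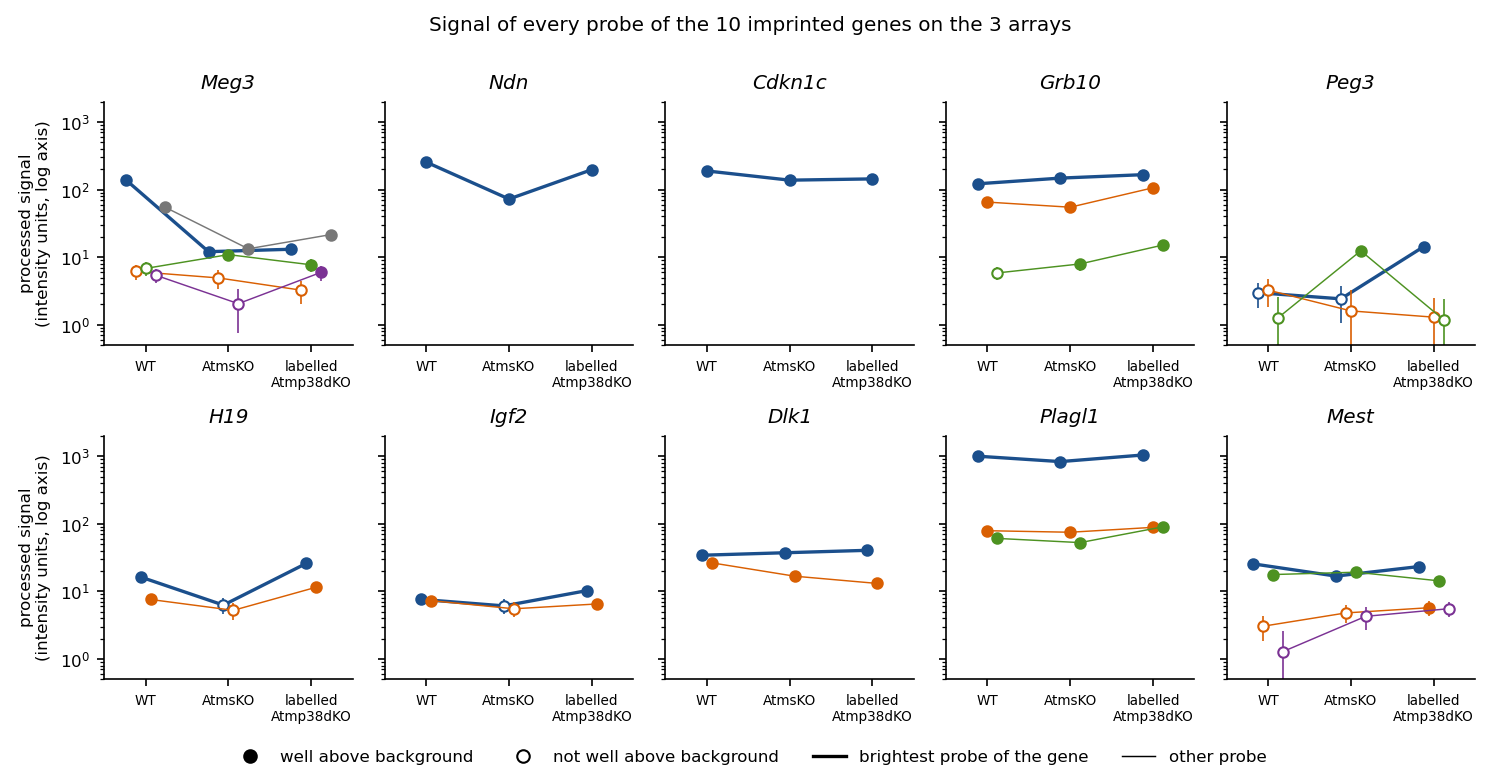
Processed signal (intensity units, log axis) of all 26 probes of the 10 imprinted genes on the WT array, the AtmsKO array and the array labelled Atmp38dKO, with 1 line per probe and bars for the scanner's error, cut off at the lower end of the axis. Filled points are well above background and open points are not. Meg3 drops from 139.6 in WT to 12.05 and 13.1 at its brightest probe, Ndn is low in AtmsKO alone, and the brightest probes of Plagl1, Cdkn1c and Grb10 stay within 2-fold.

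Meg3, the maternally expressed non-coding RNA of the Dlk1-Dio3 region, differed most from WT among the 10 genes when each was read at its brightest probe. Probe 2, the brightest, read 139.6 ± 14.0 in WT, 12.05 ± 1.8 in AtmsKO and 13.1 ± 1.7 on the array labelled Atmp38dKO. Both mutant arrays were far below WT and close to each other. The log2 difference from WT was -3.46 in AtmsKO, an 11.0-fold lower signal, and -3.63 on the array labelled Atmp38dKO, a 12.4-fold lower one, with scanner errors of 0.26 and 0.24.

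Probe 5, the last along the gene, read 54.4 ± 5.6, 13.3 ± 2.0 and 21.6 ± 2.5 on the 3 arrays in the same order. Again WT was highest, with log2 differences of -1.96 in AtmsKO and -1.55 on the array labelled Atmp38dKO, or 3.88-fold and 2.92-fold lower. The array labelled Atmp38dKO lay 0.41 above AtmsKO at this probe and 0.17 below it at probe 2, against scanner errors of 0.27 and 0.29, so the mutant arrays had opposite orders at the 2 probes.

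The other Meg3 probes were near background and did not repeat this pattern. Probe 1 was not well above background on any array (6.14, 4.93 and 3.25). It shares cDNA clones with probe 2, which read 139.6 in WT, and why they differed was not tested. Probe 3 read 6.81 in WT, where it was not well above background, 10.9 in AtmsKO and 7.71 on the array labelled Atmp38dKO, 1.69-fold higher in AtmsKO than in WT. Probe 4 was well above background on the array labelled Atmp38dKO alone, at 5.96. The lower signal of Meg3 therefore rests on probes 2 and 5. With the mean over all its probes above background on at least 1 array the differences from WT shrank to -1.10 and -1.32, and with normexp background correction to -1.49 and -1.67.

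H19, the maternally expressed non-coding RNA next to Igf2, was dim on all arrays and lowest in AtmsKO. Its brighter probe 2 read 16.3 ± 2.0 in WT, 6.26 ± 1.7 in AtmsKO and 25.9 ± 2.9 on the array labelled Atmp38dKO, and the AtmsKO value was not well above background. At this probe H19 was thus 2.47-fold lower in AtmsKO than in WT and 3.38-fold higher on the array labelled Atmp38dKO than in AtmsKO. The AtmsKO reading lay just above the lowest signal well above background on its array (6.12). It was therefore used as it stood. These folds are thus not bounds against a raised value, nor are they measured above background on both arrays. The array labelled Atmp38dKO lay 0.45 above WT (scanner error 0.24). Probe 1 showed the same order at 7.58, 5.24 and 11.51, with AtmsKO again not well above background, and bounds of 1.17-fold and 1.54-fold. Under normexp background correction the difference of H19 between AtmsKO and WT was -0.12 and that between both mutant arrays 0.19, so neither call held there. With the mean of its probes the difference between AtmsKO and WT was -0.77, short of 2-fold, and that between both mutant arrays 1.19.

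Ndn encodes necdin, a paternally expressed growth suppressor of the MAGE family that binds E2F1 and p53 and has been linked to HSC quiescence. Its only probe (chr7:69494749-69494808, forward strand) read 254.6 ± 25.5 in WT, 72.4 ± 7.4 in AtmsKO and 196.9 ± 19.7 on the array labelled Atmp38dKO. AtmsKO stood apart as the low array, 3.33-fold below WT (log2 difference -1.74, scanner error 0.21) and 2.22-fold below the array labelled Atmp38dKO (1.15). The array labelled Atmp38dKO was 0.59 below WT, a difference that did not reach the threshold. Across the scaling, background and table alternatives the AtmsKO difference stayed between -1.74 and -1.27, and since Ndn has 1 probe no second reading exists.

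Cdkn1c encodes p57, an inhibitor of cyclin-dependent kinases. Its only probe (chr7:150644297-150644356, reverse strand) read 188 ± 18.9 in WT, 138 ± 13.8 in AtmsKO and 144 ± 14.4 on the array labelled Atmp38dKO. Both mutant arrays were lower than WT, by 0.38 and 0.61 on the log2 scale with a scanner error of 0.20 in each case, and neither difference reached 2-fold.

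Grb10 encodes an adaptor that dampens signaling from the insulin and IGF1 receptors, and its 3 probes lie on the reverse strand of chromosome 11. The brightest probe (chr11:11870574-11870633) read 121.7 ± 12.2, 147.7 ± 14.8 and 166.0 ± 16.6 in WT, AtmsKO and on the array labelled Atmp38dKO, differences of 0.36 and 0.23 from WT. The second read 65.2, 54.8 and 106, and the third 5.85 (not well above background), 7.94 and 15.1. All 3 probes were higher on the array labelled Atmp38dKO than in WT, by 0.23, 0.49 and 1.15, but only the dimmest passed 2-fold. In AtmsKO the brighter probes differed from WT in opposite directions.

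Igf2, the paternally expressed growth factor that signals through the IGF1 receptor and is cleared by the IGF2 receptor, was close to background on all arrays. Its probes read 7.61 and 7.29 in WT, 6.09 and 5.52 in AtmsKO and 10.3 and 6.51 on the array labelled Atmp38dKO, and neither was well above background in AtmsKO. Together with the H19 probes, all 4 probes of the Igf2-H19 domain were therefore not well above background in AtmsKO and well above it on the other arrays. That array also had the fewest probes above background in all, and the part of this in the 4 readings was not tested. The bounds on the lower Igf2 signal in AtmsKO were small, at 1.18-fold and 1.13-fold below WT, and on the array labelled Atmp38dKO the probes differed from WT in opposite directions (0.22 and -0.38).

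Dlk1 encodes a transmembrane protein of the Notch ligand family and is the paternally expressed counterpart of Meg3. Its brighter probe (chr12:110698721-110698781) read 34.2 ± 3.7, 37.2 ± 4.0 and 40.5 ± 4.2, log2 differences of 0.20 and 0.03 from WT that were no larger than the scanner error of 0.22. The other probe, which lies just upstream at chr12:110698428-110698487, read 26.4 ± 3.0 in WT, 16.8 ± 2.3 in AtmsKO and 13.1 ± 1.8 on the array labelled Atmp38dKO. There both mutant arrays were lower, by 0.58 and 1.23. The probes of Dlk1 thus disagreed, and the difference between the array labelled Atmp38dKO and WT turned from 0.03 to -0.60 when they were averaged.

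Plagl1, a zinc finger transcription factor gene also known as Zac1 that restrains proliferation, was steady. Its brightest probe read 999 ± 99.9 in WT, 831 ± 83.1 in AtmsKO and 1040 ± 104 on the array labelled Atmp38dKO, or -0.19 and -0.16 relative to WT with a scanner error of 0.20. Over its 3 probes the differences from WT ran from -0.19 to 0.35.

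Peg3, a paternally expressed zinc finger gene, gave readings that differed from probe to probe. The probe at chr7:6674720-6674779 read 14.3 ± 1.8 on the array labelled Atmp38dKO and 2.98 and 2.42 in WT and AtmsKO, where it was not well above background, so the array labelled Atmp38dKO was at least 2.31-fold higher than WT. Another probe, at chr7:6658774-6658833, read 12.4 ± 1.9 in AtmsKO and was not well above background elsewhere (1.27 in WT and 1.19 on the array labelled Atmp38dKO). The third was not well above background on any array. Each Peg3 signal thus came from 1 probe on 1 array, and the call on the array labelled Atmp38dKO was lost when probes were averaged (0.45) or under normexp (0.12).

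Mest, which encodes an enzyme-like protein of the alpha/beta-hydrolase fold and is expressed from the paternal chromosome in mesodermal tissue, was read by 2 probes throughout. The brighter read 25.5 ± 2.8, 16.8 ± 2.1 and 23.3 ± 2.5 in WT, AtmsKO and on the array labelled Atmp38dKO (differences of -0.52 and -0.35 from WT), and the other 17.7, 19.2 and 14.3 (0.19 and -0.52). The probes had opposite signs in AtmsKO and the same sign on the array labelled Atmp38dKO. Another 2 probes were near background, and no Mest probe reached 2-fold.

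**Figure D2:**
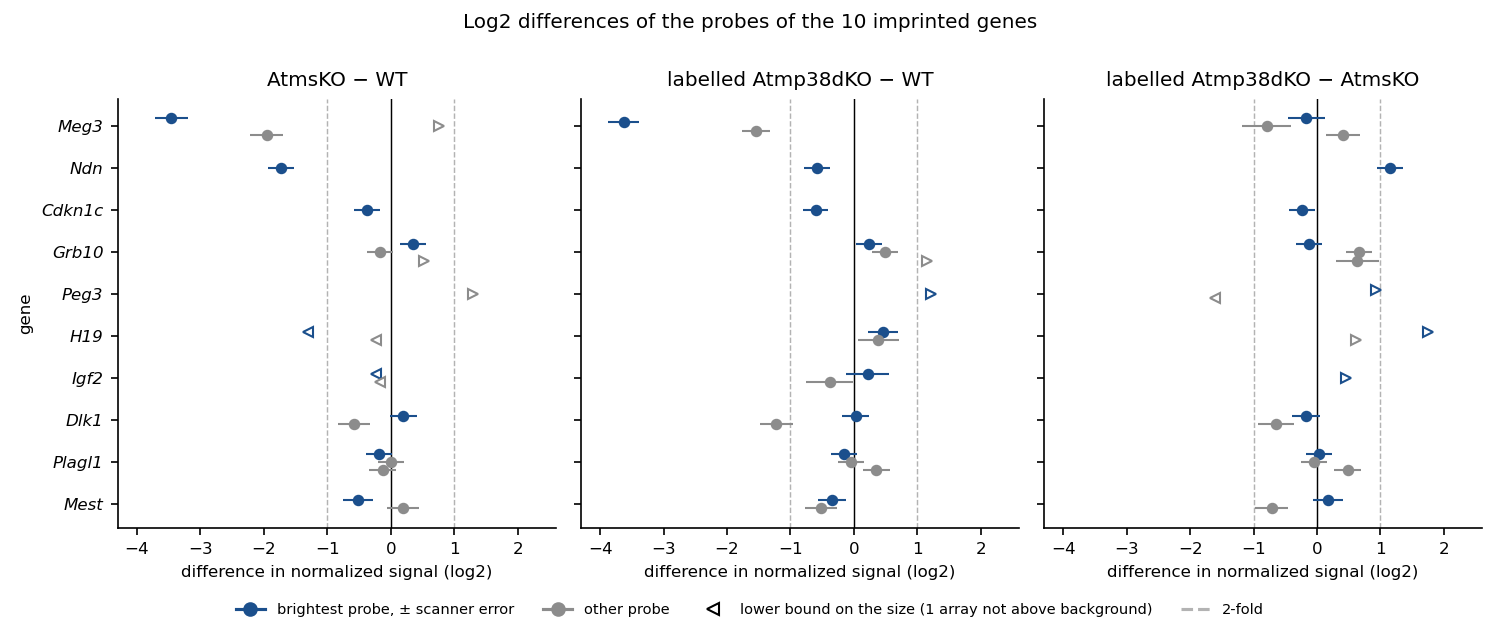
Log2 differences in normalized signal for each probe of the 10 genes in the 3 comparisons, with blue for the brightest probe of a gene, grey for the others, bars for the scanner error, open triangles for lower bounds on the size and dashed lines at 2-fold. Meg3 lies at -3.46 and -3.63 against WT at its brightest probe, whereas Ndn and H19 lie beyond 2-fold in AtmsKO and not on the array labelled Atmp38dKO.

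Counted together, 9 of the 10 genes could be compared between AtmsKO and WT, Peg3 being the exception. Meg3, Ndn and H19 were at least 2-fold lower and none was higher, and 7 of the 9 differences were below 0. Among all 29041 genes compared, 3.98% were at least 2-fold lower and 3.81% at least 2-fold higher. The median difference of the 9 genes was -0.38 against 0.01 over all genes. Since the genes were chosen with this contrast in view, these figures are set side by side and nothing is read from them.

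Between the array labelled Atmp38dKO and WT all 10 genes were compared, and Meg3 was lower, Peg3 higher and the other 8 within 2-fold. The background shares were 4.41% lower and 3.95% higher among 30646 genes, and the median of the 10 genes was -0.06 against 0.02 over all genes. Between the array labelled Atmp38dKO and AtmsKO, Ndn and H19 were higher and none of the 10 was lower, with 3.7% of 30202 genes higher and 3.62% lower. The 10 genes there had a median of 0.10 against -0.005 over all, which turned to -0.03 under normexp, -0.05 with the mean of probes and -0.12 with both arrays above background. The comparisons share arrays, so they are not independent of each other.

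Signals at least 8-fold below WT were rare on both mutant arrays, at 0.22% of genes in AtmsKO and 0.284% on the array labelled Atmp38dKO. Meg3 was the one member among them. In order of the difference from WT at the brightest probe, Meg3 was gene 43 of 29041 from the bottom in AtmsKO and gene 46 of 30646 on the array labelled Atmp38dKO. These places rest on that probe alone. At the last Meg3 probe along the gene the differences were -1.96 in AtmsKO and -1.55 on the array labelled Atmp38dKO. With the mean of the Meg3 probes they were -1.10 and -1.32. All of these fall short of 8-fold, and the place of Meg3 by them was not determined. Ndn stood at place 327 in AtmsKO and at place 3240 on the array labelled Atmp38dKO.

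**Figure D3:**
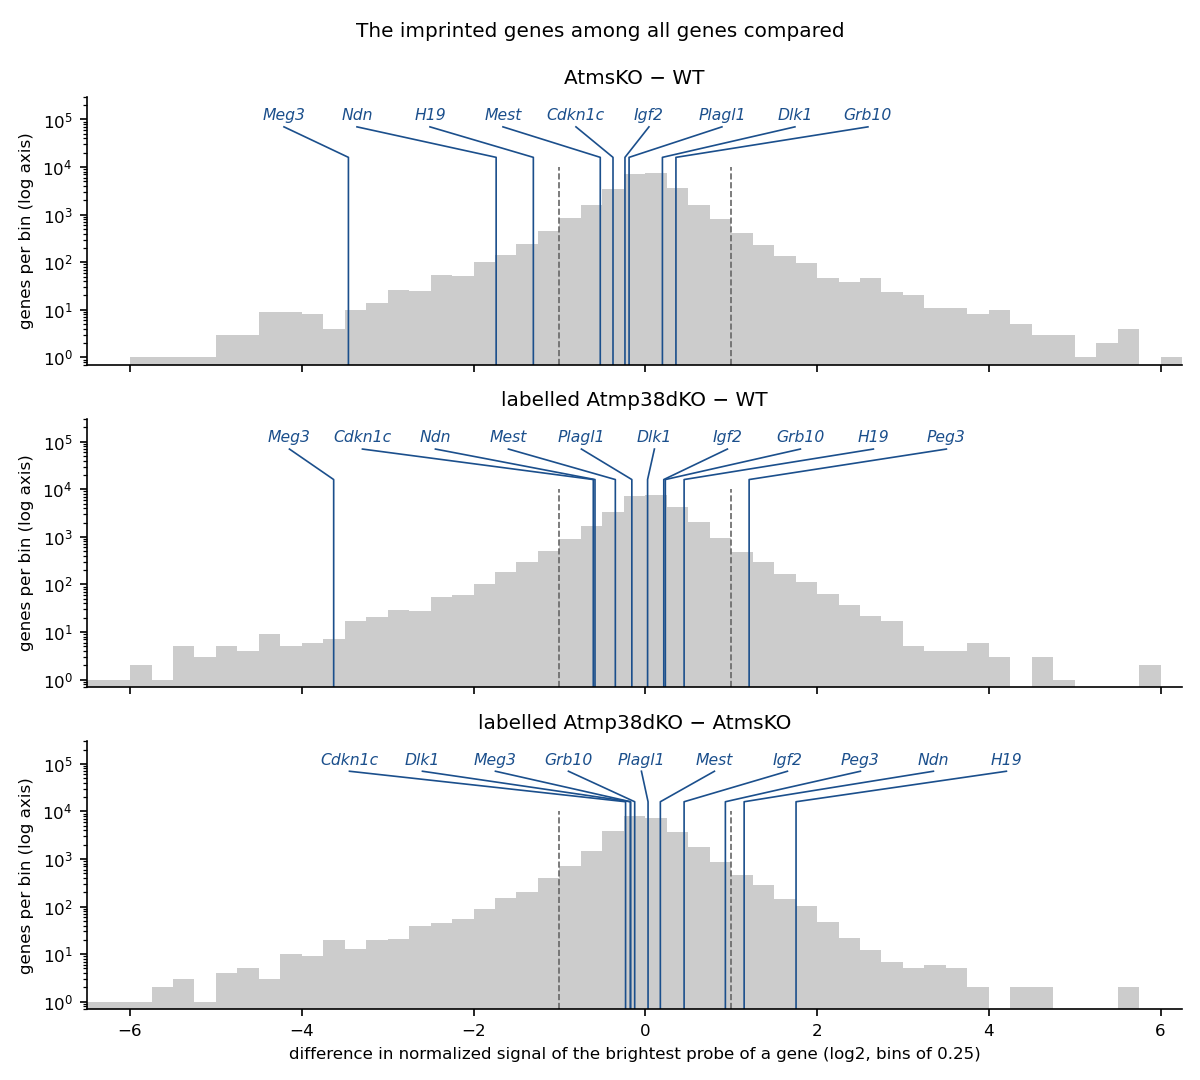
Number of genes (log axis) per bin of 0.25 in the log2 difference of the brightest probe, for the 3 comparisons, with blue lines for the imprinted genes compared and dashed lines at 2-fold. Meg3 lies in the lower tail against WT on both mutant arrays and near the centre between them, and most other members lie within 2-fold.

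Further probes of the same genes were compared in sign with the brightest. Of 6 other probes measured on both arrays, 2 had the sign of the brightest probe between AtmsKO and WT. The figures were 5 of 8 between the array labelled Atmp38dKO and WT and 3 of 8 between both mutant arrays. Within an array, the 300 probes printed 10 times had a median SD between spots of 0.05 on the log2 scale, which is not the error of a difference between arrays.

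The genomic neighbours of Meg3 were examined because genes of an imprinted cluster are often controlled together. From Begain to Dio3 (chr12:110270408-111518851, 1248 kb) lay 51 probes under 36 names, of which 32 were well above background on all arrays. Without Meg3, 4 of 35 probes compared were at least 2-fold lower in AtmsKO and 4 of 35 on the array labelled Atmp38dKO, and 1 and 0 were higher. Over all probes of the array 4.74% and 5.07% were lower, and 4.29% and 4.69% were higher. The median of these neighbours was -0.10 in AtmsKO and -0.13 on the array labelled Atmp38dKO.

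Rian, a maternally expressed non-coding RNA downstream of Meg3, read 46.3, 32.1 and 56.1 at its brighter probe in WT, AtmsKO and on the array labelled Atmp38dKO, and 10.7, 4.53 and 3.01 at the other. The mutant values of that probe were not well above background, so its WT signal was above theirs by at least 1.66-fold for AtmsKO and at least 2.502-fold for the array labelled Atmp38dKO. Mirg, the host RNA of a microRNA cluster, read 53.7, 48.3 and 63.4. Dio3, the thyroid hormone deiodinase gene at the far end, read 128, 111 and 129. The brightest probes of these neighbours stayed within 2-fold of WT on both mutant arrays.

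A few further readings in the region differed. A probe of Begain, at the near end, read 27.6, 10.4 and 13.8 (-1.33 and -1.21 from WT), while the other Begain probe read 40.2, 31.6 and 38.9. A long intergenic non-coding RNA far downstream, read at chr12:111323170-111323229, gave 83.5, 34.9 and 27.3 (-1.18 and -1.83). The probe of 6430411K18Rik, between Rtl1 and Rian, read 19.7, 8.94 and 17.8, and that of a long intergenic non-coding RNA at chr12:110897958-110898017 read 15.0, 3.79 (not well above background) and 11.0. Both of these were at least 2-fold lower in AtmsKO alone. The 1 higher reading was that of a reverse-strand transcript at chr12:111079941-111080000, at 6.52, 28.4 and 10.1.

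**Figure D4:**
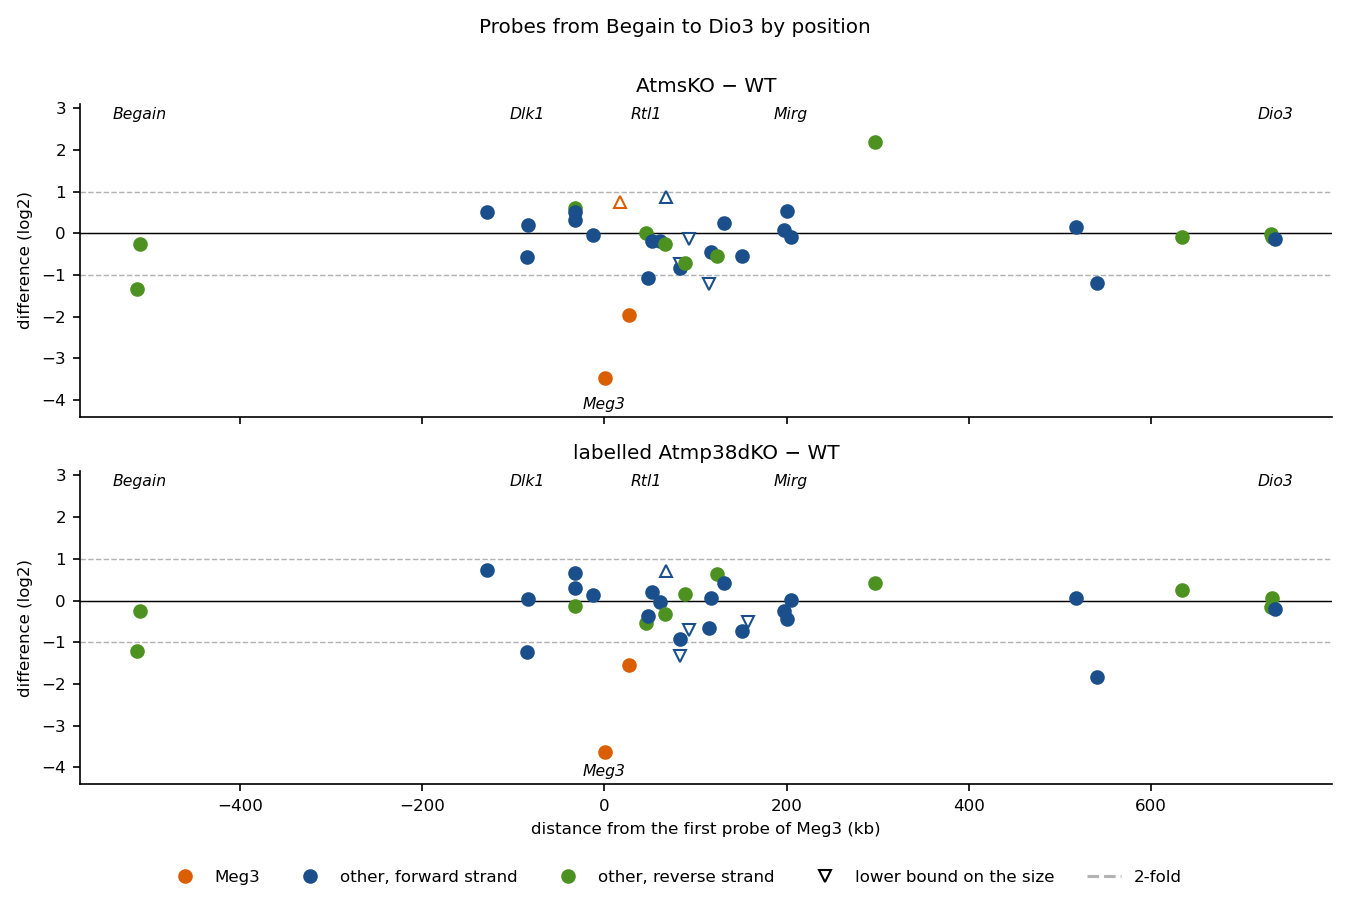
Log2 difference from WT of each probe between Begain and Dio3 against its distance from the first Meg3 probe (kb), for AtmsKO (top) and the array labelled Atmp38dKO (bottom), with open triangles for bounds and dashed lines at 2-fold. The Meg3 probes at -3.46 and -1.96 (top) and at -3.63 and -1.55 (bottom) lie below nearly all neighbours, which gather around 0.

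Ndn lies in the Mkrn3-Snrpn cluster on chromosome 7. Its neighbour Magel2, a paralog expressed from the same paternal chromosome, read 62.0, 35.7 and 54.6, again lowest in AtmsKO, with differences of -0.72 and -0.40 from WT. Of 17 probes of the interval compared in AtmsKO, 3 were at least 2-fold lower and none higher, against 4.74% and 4.29% of all probes. They were Ndn and 2 of the 3 Snrpn probes. Ndn was itself chosen with this contrast in view, so the count is not independent of that choice. These Snrpn probes read 16.6 and 15.3 in WT and were not well above background in AtmsKO. The third Snrpn probe read 15.7, 13.5 and 13.2. On the array labelled Atmp38dKO 0 of 19 probes were lower, against 5.07% of all probes.

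Around Cdkn1c, from Cd81 to Nap1l4, 0 of 20 probes were 2-fold lower in AtmsKO and 0 of 21 on the array labelled Atmp38dKO, against 4.74% and 5.07% of all probes. Of 2 probes of Trpm5, 1 was higher in AtmsKO, at 15.4, 52.4 and 14.7. Kcnq1ot1, the paternal non-coding RNA that silences Cdkn1c on its own chromosome, read 3556, 3577 and 4707 at its brightest probe. In the Zim1-Usp29 interval around Peg3, Usp29 read 19.5, 10.1 and 16.2. Near Mest, Copg2 read 75.4, 68.4 and 115. None of these brightest probes differed by 2-fold between any pair of arrays. Over all probes of the Zim1-Usp29 interval, 1 of 6 compared was higher in AtmsKO and 1 of 8 on the array labelled Atmp38dKO. Both were probes of Peg3, and none was lower than WT. From Copg2 to Mest, 0 of 5 were called in AtmsKO and 1 of 6 was lower on the array labelled Atmp38dKO. Over all probes 4.29% and 4.69% were higher.

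Other imprinted genes were counted from a list of 64, of which 62 were on the array. Between AtmsKO and WT, 2 of 54 compared (Nnat and Peg10) were lower and 3 (Igf2r, Sfmbt2 and Ddc) higher, with a median of -0.09. On the array labelled Atmp38dKO, 3 of 57 (Nnat, Peg10 and Calcr) were lower and 3 (Igf2r, Inpp5f and Asb4) higher than WT, with a median of -0.07. Between both mutant arrays 2 of 56 (Sfmbt2 and Ddc) were lower on the array labelled Atmp38dKO and 1 (Asb4) higher. The shares over all genes were 3.98% lower and 3.81% higher in AtmsKO and 4.41% and 3.95% on the array labelled Atmp38dKO, so these counts were close to the background.

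Nnat, which encodes the membrane proteolipid neuronatin and is paternally expressed, had the lowest difference from WT within this list on both mutant arrays, at 71.6, 12.04 and 24.1 (-2.49 and -1.78). Peg10, a retrotransposon-derived paternal gene, read 88.0, 38.4 and 40.7 (-1.12 and -1.33), but its other probe was higher in AtmsKO by 0.72. Igf2r, which encodes the receptor that clears IGF2, was higher on both mutant arrays at 254, 566 and 691, a log2 difference of 1.23 in each case. Ddc was high in AtmsKO alone at its brighter probe (35.1, 186 and 27.3), and its other probe was lower there (31.5, 11.2 and 4.61). Sfmbt2, a Polycomb-related gene, read 9.50, 21.8 and 10.2 at its brightest probe. Another of its probes read 1.69, 1.87 and 15.2 and was well above background on the array labelled Atmp38dKO alone. There that array was at least 2.03-fold above AtmsKO, the opposite order. Inpp5f, an inositol phosphatase gene, was higher on both mutant arrays at each of its probes, with 15.2, 24.2 and 39.5 at the brighter. Asb4 read 9.13, 1.51 (not well above background) and 21.9, whereas its other probe was lowest on the array labelled Atmp38dKO.

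**Figure D5:**
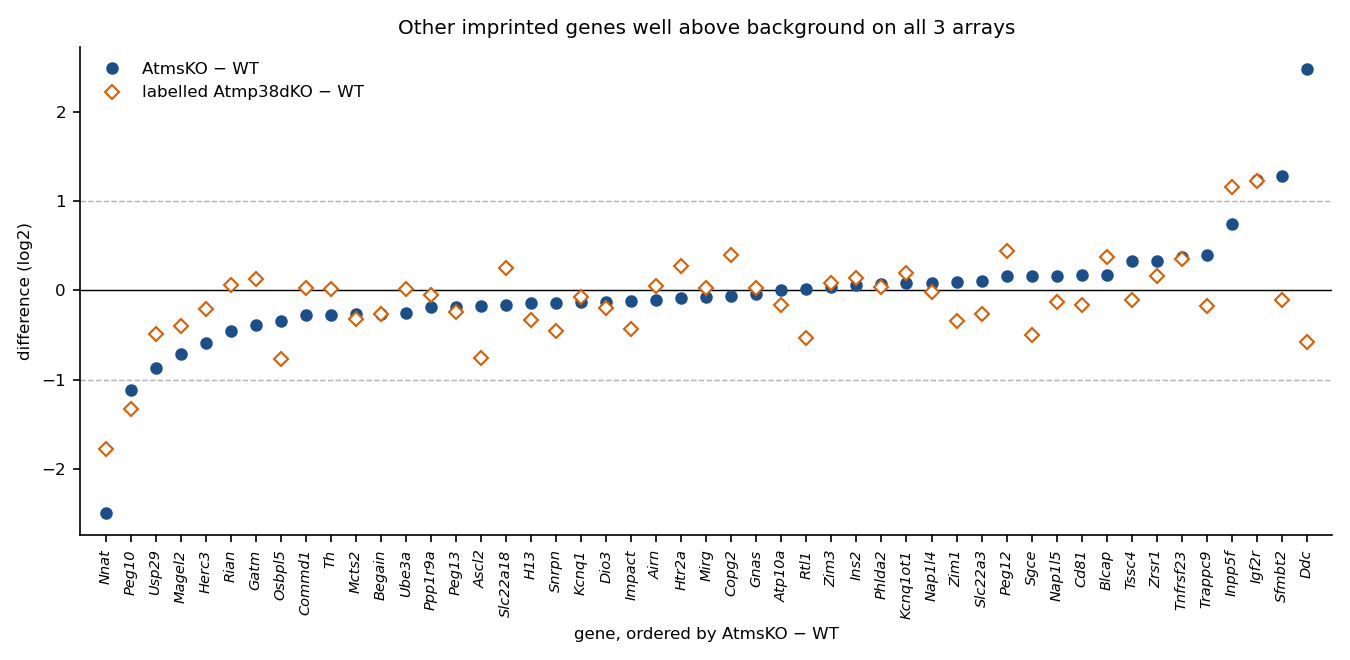
Log2 difference from WT for the 49 imprinted genes outside the 10 members that were well above background on all 3 arrays, ordered by the difference in AtmsKO (filled circles), with the array labelled Atmp38dKO as open diamonds and dashed lines at 2-fold. Both series share the WT array. Nnat and Peg10 lie below and Igf2r above 2-fold in both, and most genes lie near 0.

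Genes that keep imprints in place were measured too. The 11 compared of 12 were the DNA methyltransferase genes Dnmt1, Dnmt3a and Dnmt3b, Uhrf1, which recruits Dnmt1 to replicating DNA, the zinc finger genes Zfp57 and Zfp445, their corepressor Trim28 with the histone methyltransferase Setdb1, and Ctcf, Ctcfl and Arid4a. None was 2-fold lower or higher in any comparison, where about 4% of all genes were in each direction (3.62% to 4.41%). Dnmt1 read 114, 90.5 and 140, Uhrf1 2143, 2445 and 3326, Trim28 581, 688 and 813, and Zfp57 78.5, 59.9 and 75.6. The median differences from WT were 0.24 and 0.07.

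Partners of the members in growth factor and cell cycle control were counted from a list of 28. Of 26 compared, 1 was at least 2-fold lower in AtmsKO (Cdkn1a) and 1 higher (Igf2r), shares near the 3.98% and 3.81% of all genes, and only Igf2r was called on the array labelled Atmp38dKO. Cdkn1a, which encodes p21, the p53-induced relative of p57, read 213, 94.7 and 135 (-1.10 and -0.88), and all of its 3 probes were lower than WT on both mutant arrays. Igf2bp2, an RNA-binding protein gene whose product binds Igf2 mRNA, read 89.0, 43.0 and 59.2 (-0.97 and -0.80). Igf2bp3, of the same family, read 95.7, 92.7 and 212 at its brightest probe (0.03 and 0.93). Cdkn1b, which encodes p27, read 511, 561 and 659, and Igf1r 2531, 2160 and 1888.

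By the pair of differences from WT, the gene nearest to Meg3 among 28167 genes well above background in WT was Gm35657, a predicted gene on chromosome 9, at 138, 12.3 and 12.5 and a distance of 0.08 on the log2 scale. The next were C130023C23Rik and B530045E10Rik, at distances of 0.30 each, whose mutant values were not well above background. This likeness is over 3 arrays only.

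The members' promoters could be examined for 8 of the 10 genes (all but H19 and Cdkn1c) in RefSeq windows of assembly GRCm38.p6 from 250 bases before to 50 after a start. The highest window of a gene held a median of 15 CG dinucleotides against 8 over 27025 genes. At least 10 were found in 7 of the 8 genes, Dlk1 with 9 being the exception, and in 45.8% of all genes. Meg3 had windows with 1 and 13, and Ndn 1 window with 11. This is a description of the sequence, and methylation was not measured here.

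Some markers of other cell types that a bone marrow sort could hold were called on the mutant arrays. Over all genes, 3.81% were at least 2-fold higher and 3.98% lower than WT in AtmsKO. The shares were 3.95% and 4.41% on the array labelled Atmp38dKO. Of the endothelial markers Kdr and Vwf were at least 2-fold higher in AtmsKO than in WT (2 of 6 compared), and Kdr also on the array labelled Atmp38dKO. Kdr read 5.88, 114 and 18.1, while Cdh5 was not well above background on any array. The summed signal of the 7 endothelial markers, in units of each array's 75th percentile, was 9.22 in WT, 10.6 in AtmsKO and 8.29 on the array labelled Atmp38dKO. That of the 9 stromal markers was 1.91, 2.47 and 1.84, with Lum not well above background on any array and Pdgfrb higher in AtmsKO. For the 5 megakaryocyte markers it was 16.3, 30.5 and 19.1, carried by Pf4. Among erythroid markers Alas2 was at least 2-fold higher than WT on both mutant arrays (6.504, 20.4 and 26.3), and all 7 were above WT on the array labelled Atmp38dKO (median 0.49, summed signal 2.754, 2.88 and 3.51). All 7 granulocyte markers were above WT in AtmsKO, none by 2-fold (median 0.37, summed signal 27.4, 32.8 and 32.2). Of 5 B cell markers, 2 were at least 2-fold lower in AtmsKO, among them Vpreb1, which was not well above background there. Vpreb1 was also called lower on the array labelled Atmp38dKO, where 4 of the 5 were below WT. Of 6 markers of proliferating cells, 5 were above WT in AtmsKO (median 0.27) and 3 on the array labelled Atmp38dKO (0.04), none by 2-fold (summed signal 30.9, 36.9 and 34.6). No T cell or macrophage marker was called against WT. The part of these shifts in the signals of Meg3, Ndn and H19 was not tested.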

How the data were processed

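The 3 arrays were scanned by the authors' contractor, and the deposited Agilent Feature Extraction 11.5.1.1 files hold intensity values per spot: a processed intensity that is background-subtracted and spatially detrended but not normalized between arrays, its error, the mean and local background intensities, and flags. A deposited series table holds log2 values, which equal log2 processed signal minus the 75th percentile within 0.02 for 99.8%, 99.7% and 99.6% of probes on the respective arrays and were used as an alternative. The column medians are -2.18, -2.22 and -2.17. The file headers place the probes on mm9.

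Control and outlier spots were dropped and spots of a probe averaged. A probe was well above background if over 50% of its spots were. Values not well above background were first raised to the lowest value well above background on that array, unless they were already higher. A fold against a raised value is a bound. Log2 processed signal minus the array's 75th percentile was then compared between arrays. A change in the total RNA of a cell cannot be seen after this scaling. RefSeq accessions were matched to a GRCm38.p6 table, which named 32991 probes, and the others kept the file's name. The brightest probe stood for a gene. With 1 array per group no test was run, so no p-value is given, and precision is limited by how few arrays there are. The call rule was tested on simulated data. The 10 genes, the gene lists, the named genes (all members, the largest differences in each list, cluster neighbours and the 3 genes nearest to Meg3) and the thresholds were chosen with earlier results of these data known. Alternatives were normexp (limma 3.58.1, offset 50), quantile normalization, median centring, no floor, the deposited log2 table, the mean of a gene's probes, a filter on both arrays, and a 4-fold threshold. Python 3.11.15, pandas 2.3.3, numpy 2.4.6 and R 4.3.3 were used. The values of 2 marker genes and the sequence of 1 probe are not reported here.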

Additional observations from a re-analysis of the deposited data

How the results depend on the processing

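Across 8 alternatives, 182 of 197 single-gene differences stayed within 1.5-fold of the reported value and none of the called differences changed sign; 15 moved further, among them those of Meg3, H19, Peg3 and Dlk1 given with these genes. Of 69 medians and counts over the 10 genes, 61 stayed close, though the median between both mutant arrays turned from 0.10 to -0.03 under normexp, -0.05 with the mean of probes and -0.12 with both arrays above background. The count lower in AtmsKO than in WT was 1 instead of 3 at 4-fold, and 2 under normexp, with the mean of probes and with both arrays above background. The count higher on the array labelled Atmp38dKO than in WT was 0 instead of 1 under normexp, with the mean of probes, with both arrays above background and at 4-fold. That higher than in AtmsKO was 0 instead of 2 under normexp and at 4-fold, and 1 with both arrays above background. Normexp with an offset compresses dim signals, and 0.32% of all genes were 2-fold lower in AtmsKO under it. The 2-fold call of Meg3 against WT held on both mutant arrays under every alternative run. Dim probes limit H19, Igf2, Peg3 and the other Meg3 probes, since the lowest signal well above background was between 4.97 and 6.12 units. No paired analysis was possible because there is a single array for every genotype.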
